A study of Mus musculus with 4 samples.

Results

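Cfap221, Cfap46, Cfap54 and Cfap74 encode subunits of the C1d projection, one of the protein arms on the central pair of microtubules inside motile cilia. All 4 genes were found by symbol in a feature table of 22583 features. Their levels were measured in tracheal cells by single-cell RNA sequencing with unique molecular identifiers (UMIs), tags that count each captured RNA molecule once. The study sequenced tracheal cells of 3 mouse lines with central pair mutations and of wild-type mice, 1 library for each genotype, all on the 129S6/SvEvTac background.

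Mice of the nm1054 line have no Cfap221. In bgh mice Spef2 is mutated, and in Cfap54gt/gt mice the Cfap54 allele is gene-trapped. Each library pooled cells from 6 tracheas, or from 5 for bgh, taken from mice 5 to 8 months old. Tracheas were digested with pronase, fibroblasts were depleted by plating and dead cells were removed on a column. Of these cells, 8500 were loaded per reaction to capture at least 5000. The authors deposited a single matrix, and the suffix of each barcode, 1 to 4, gives its library. The labels do not say which suffix is which genotype. Values are therefore given for libraries 1 to 4, a genotype was not inferred from any value, and genotypes were not compared. With 1 library per genotype and pooled animals there was no biological replicate, so no value has a p-value and every interval covers counting error only.

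Motile cilia of the airway beat to move mucus, and their axoneme holds an outer ring of doublet microtubules around a central pair, C1 and C2. Projections from the central pair contact the radial spokes and take part in setting the bend of the cilium. In the alga Chlamydomonas the C1d projection contains the homologues of the 4 proteins together with the homologue of Wdr93, and Cfap221 was formerly called Pcdp1. Loss of central pair proteins is a cause of primary ciliary dyskinesia, in which airway cilia beat abnormally.

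The promoters of the members that were matched are shown first, and a link between their sequence and the levels was not tested. Cfap221, Cfap46 and Cfap74 had an entry in the RefSeq promoter table, from 250 bases before the gene's start to 50 after it, on build GRCm38.p6, which is not the build of the counts (GRCm39). Cfap54 was not matched. Capitals mark the X-box core GTTGCC, a sequence recognised by RFX transcription factors, on either strand (GGCAAC when on the opposite strand). Cfap221 has no exact match, and variants of the core were not searched for in any promoter. The Cfap221 promoter lies at chr1:119997183-119997482 on the minus strand, that of Cfap46 at chr7:139683766-139684065 on the minus strand and that of Cfap74, for the first of its RefSeq starts, at chr4:155408940-155409239 on the plus strand.
Cfap221: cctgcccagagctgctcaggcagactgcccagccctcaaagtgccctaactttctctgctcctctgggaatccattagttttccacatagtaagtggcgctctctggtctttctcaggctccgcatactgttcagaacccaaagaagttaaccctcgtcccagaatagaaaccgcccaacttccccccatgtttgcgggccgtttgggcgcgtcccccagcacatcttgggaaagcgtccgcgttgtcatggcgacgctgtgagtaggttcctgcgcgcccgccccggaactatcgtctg
Cfap46: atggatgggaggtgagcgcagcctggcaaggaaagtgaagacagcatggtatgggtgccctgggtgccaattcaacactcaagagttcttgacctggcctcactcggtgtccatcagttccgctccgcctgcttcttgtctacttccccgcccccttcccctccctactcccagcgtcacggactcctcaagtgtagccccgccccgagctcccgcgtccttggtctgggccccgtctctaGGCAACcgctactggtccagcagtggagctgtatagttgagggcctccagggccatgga
Cfap74: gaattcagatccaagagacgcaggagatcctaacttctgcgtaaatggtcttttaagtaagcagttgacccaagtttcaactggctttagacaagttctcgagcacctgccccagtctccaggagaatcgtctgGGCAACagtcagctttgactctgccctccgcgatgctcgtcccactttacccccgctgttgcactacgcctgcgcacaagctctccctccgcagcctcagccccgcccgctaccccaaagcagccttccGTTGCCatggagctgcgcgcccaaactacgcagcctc

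In Cfap46 the core was on the opposite strand and began 9 bases before the gene's start. Cfap74 held it on the opposite strand 116 bases before the start and on the gene's strand 13 bases after it. GTTGCC was present on either strand in 12.5% of 32851 mouse promoters of this length. A forkhead motif, TGTTTAC, was in 3.65% of them and in none of these 3 windows. A match describes the letters only and is not a measured binding site.

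Depth and cell quality bear on every value that follows. Libraries 1 to 4 held 4202 to 7360 barcodes and 39658153 to 53491773 UMIs, and 19471 cells remained after filtering. Ciliated-like cells are 3 clusters in which 11 or 12 of 12 ciliated markers were raised, among them Foxj1, the master regulator of motile ciliogenesis, at 323 CPM (UMIs of a gene scaled to a common total) against 1.19 CPM in the other named epithelial cells. They numbered 1192, 985, 1291 and 1301 in libraries 1 to 4, with medians of 3809.5, 2266, 2107 and 2473 UMIs per cell. Library 1 therefore had the deepest ciliated-like cells. The 8 secretory markers summed to 18201, 16115, 33895 and 31067 CPM in these cells and the 8 basal markers to between 44.1 and 80.7 CPM. The part of this secretory RNA in the values below was not tested. Clusters with ciliated and other lineage markers together were kept out of the class, the main one being 1825 ciliated and secretory cells with a median of 17765 UMIs. Libraries shared 52 barcode sequences, and leaving out the cells that carry them moved none of 35 recomputed values beyond its error or its range over libraries.

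Cfap221 was the least counted of the 4 genes and had no UMI in library 3. Its UMIs (ENSMUSG00000036962) in ciliated-like cells numbered 80, 41, 0 and 54 for libraries 1 to 4. The level was 11.3 CPM (8.96 to 14.1, 95% Poisson), 13.0 CPM (9.33 to 17.6), 0 CPM (up to 0.700 at a floor of 3 UMIs) and 10.5 CPM (7.87 to 13.7). Libraries 1, 2 and 4 overlapped in their intervals and library 3 lay under all of them. Set to that floor, Cfap221 was 15-fold lower in library 3 than the 10.5 CPM measured in library 4, the next lowest. That is a log2 difference of -3.90, with an interval from -6.23 to -2.28 when the floor is taken as 3 counted UMIs. The zero was not limited to ciliated-like cells, since all 7360 barcodes of library 3 held 0 Cfap221 UMIs, against 122, 88 and 105 in libraries 1, 2 and 4. Among libraries 1, 2 and 4 the highest over the lowest was 0.31 on the log2 scale, with an interval from -0.31 to 0.92.

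Cfap54, which encodes a large C1d subunit, was nearly absent from library 2 and at similar levels in the other libraries. Ciliated-like cells of libraries 1 to 4 held 791, 13, 513 and 616 UMIs of Cfap54 (ENSMUSG00000020014). Its level was 112 CPM (104 to 120), 4.12 CPM (2.19 to 7.05), 119.6 CPM (109 to 130.4) and 119 CPM (110.2 to 129). Library 2 was 27.1-fold lower than library 1, the next lowest, a log2 difference of -4.76 (-5.68 to -3.98). The difference was -6.23 in cells with at least 3000 UMIs, -5.85 with finer clusters and -3.95 as a mean of per-cell CPM, with library 2 lowest each time. Few UMIs lie under the first value, as library 2 held 1 Cfap54 UMI in cells of 4000 to 8000 UMIs and 2 in deeper cells. Libraries 1, 3 and 4 differed by at most 0.10 on the log2 scale (-0.07 to 0.26). The 13 UMIs of library 2 lay in 13 cells, 1 in each, whose median depth of 2206 UMIs was close to the 2266 of all ciliated-like cells there. Of these cells, 1 also held Cfap46 and 3 also held Cfap74, and none had a barcode sequence found in another library. Cells of libraries 1, 3 and 4 held up to 8, 8 and 9 Cfap54 UMIs.

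Cfap46 and Cfap74, the members mutated in none of the lines, were present in all 4 libraries. Cfap46 (ENSMUSG00000049571), another large subunit, had 382, 208, 322 and 370 UMIs, or 54.0 CPM (48.7 to 59.7), 65.9 CPM (57.3 to 75.5), 75.1 CPM (67.1 to 83.7) and 71.7 CPM (64.6 to 79.4). Cfap74 (ENSMUSG00000078490) had 248, 153, 218 and 248 UMIs, or 35.0 CPM (30.8 to 39.7), 48.5 CPM (41.1 to 56.8), 50.8 CPM (44.3 to 58.0) and 48.1 CPM (42.3 to 54.5). For both genes library 1 was lowest and libraries 2, 3 and 4 overlapped in their intervals. The step from library 1 to the next lowest was -0.29 (-0.54 to -0.04) for Cfap46 and -0.46 (-0.72 to -0.20) for Cfap74, as log2 differences.

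**Figure D1:**
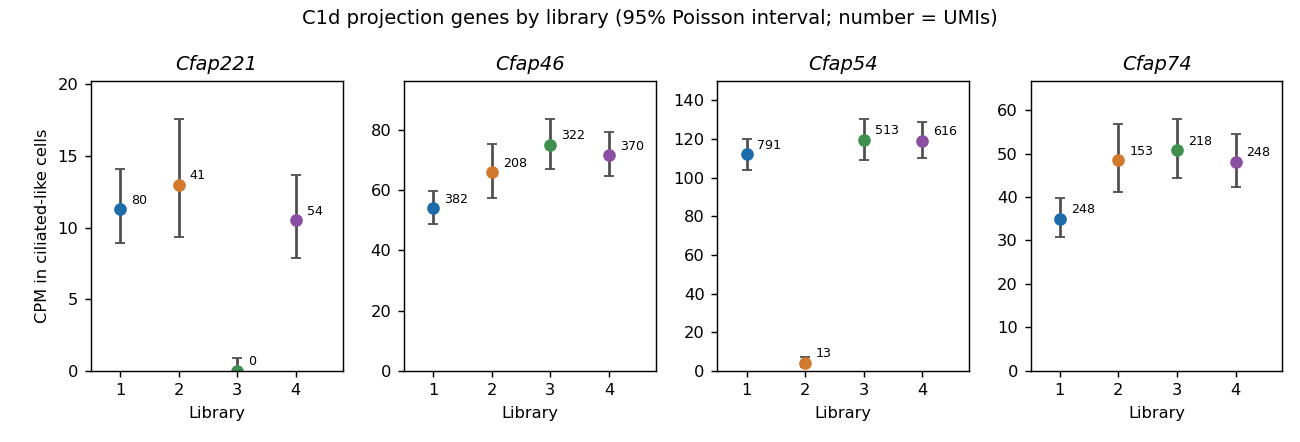
CPM of Cfap221, Cfap46, Cfap54 and Cfap74 in ciliated-like cells of libraries 1 to 4, with a linear axis of its own for each gene, 95% Poisson intervals as bars and the UMI number beside each point. Cfap221 is at 0 in library 3 and Cfap54 at 4.12 CPM in library 2, while Cfap46 and Cfap74 lie at 54.0 to 75.1 CPM and 35.0 to 50.8 CPM.

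These steps were read against all genes with at least 100 UMIs in ciliated-like cells. The lowest library lay at least 2-fold under the next lowest for 2 of the 4 members, Cfap221 and Cfap54, against 0.881% of 9312 genes. Cfap221 and Cfap54 are the members mutated in lines of the study, so this count does not describe the C1d genes as a set. Library 3 was the low one for 0.365% of genes and library 2 for 0.290%. A step of at least 16-fold was found in library 2 for 1 gene, Cfap54 itself, which is 0.0107% of genes. In library 3 it was found for 2 genes, 0.0215%, namely Dbi, which lies near Cfap221, and a feature called eGFP. Cfap221 at its floor fell just short of 16-fold. The median gene had a step of -0.14 on the log2 scale and a ratio of highest to lowest library of 0.44.

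The partner genes were then compared in the libraries that lack a member. In library 2, where Cfap54 was low, Cfap46 differed from library 3 by -0.19 (-0.45 to 0.07) and from library 4 by -0.12 (-0.37 to 0.13) on the log2 scale. Cfap74 differed there by -0.07 (-0.38 to 0.24) from library 3 and by 0.01 (-0.29 to 0.31) from library 4, and Cfap221 by 0.31 (-0.31 to 0.92) from library 4. Over the whole ciliated-like class, Cfap46 and Cfap74 in library 2 were not separated from library 3 or 4 by more than counting error. Cfap221 had no UMI in library 3, and its level in library 2 was not separated from library 4. Against library 1, library 2 was higher, the log2 ratio of library 1 over library 2 being -0.29 (-0.54 to -0.04) for Cfap46 and -0.47 (-0.77 to -0.17) for Cfap74.

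That did not hold for Cfap46 in deep cells, nor for Cfap74 against library 3 in cells with at least 3000 UMIs. In the ciliated-like cluster of deep cells, 191 of them in library 2, Cfap46 was at 45.7, 37.6, 72.1 and 64.5 CPM in libraries 1 to 4. Library 2 lay under library 3 by -0.94 (-1.40 to -0.50) and under library 4 by -0.78 (-1.24 to -0.34) on the log2 scale, while 5% of 8174 genes lay under -0.85 and -0.91 in these pairs. It was not separated from library 1, with a ratio of library 1 over library 2 of 0.28 (-0.15 to 0.74), and library 1 lay under library 3 too, by -0.66 (-0.94 to -0.37). In cells with at least 3000 UMIs, library 2 differed from library 3 by -0.85 (-1.24 to -0.47) and from library 4 by -0.70 (-1.09 to -0.33) for Cfap46. Cfap74 in the deep cluster had 26.4, 30.6, 43.4 and 40.2 CPM, and library 2 differed from library 3 by -0.50 (-1.03 to 0.00). In cells with at least 3000 UMIs, Cfap74 in library 2 lay under library 3 by -0.46 (-0.89 to -0.04), while 5% of 8813 genes lay under -0.75. It differed from library 4 by -0.23 (-0.66 to 0.18) in those cells. Library 1 lay under library 3 there too, by -0.60 (-0.91 to -0.27). In the main shallow cluster Cfap46 was instead at 72.6, 89.7, 83.3 and 86.7 CPM, with library 2 the highest and its interval (76.0 to 105) overlapping all others.

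In library 3, where Cfap221 was at 0, its partners were close to library 4 over the whole class. The log2 ratio of library 3 over library 4 was 0.07 (-0.15 to 0.29) for Cfap46, 0.00 (-0.17 to 0.17) for Cfap54 and 0.08 (-0.19 to 0.35) for Cfap74. Over 9312 genes the same ratio had a median of 0.05, with 5% of genes under -0.57 and 5% over 0.62. The partners thus lay well inside the range of all genes, and a change smaller than the interval bounds was not detectable. Library 1 over library 3 was -0.10 (-0.26 to 0.07) for Cfap54, -0.48 (-0.69 to -0.26) for Cfap46 and -0.54 (-0.80 to -0.27) for Cfap74.

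Library 1 was low for many ciliary genes, not for Cfap46 and Cfap74 alone. Among 16 other central pair genes, library 1 was lowest for 11, against 32.0% of all 9312 genes (libraries 2, 3 and 4 were lowest for 27.0%, 18.0% and 22.9%). It was also lowest for 9 of 13 radial spoke genes and 6 of 8 ciliogenesis regulators, and the 12 ciliated markers summed to 10904, 13170.3, 12807 and 12569 CPM. For the 16 central pair genes the summed level was 1571, 1919.7, 1956 and 1902 CPM in libraries 1 to 4. Per 1000 UMIs of those 16 genes, Cfap46 stood at 34.4, 34.4, 38.4 and 37.7 and Cfap74 at 22.3, 25.3, 26.0 and 25.3. On that scale library 1 differed from library 4 by -0.13 (-0.34 to 0.08) for Cfap46 and -0.18 (-0.44 to 0.08) for Cfap74, within counting error, and Cfap46 did not differ between libraries 1 and 2 (0.00, -0.25 to 0.25). Among cells with at least 3000 UMIs, library 2 and not library 1 was lowest for Cfap46. With finer clusters, without doublet removal or with mixed clusters added, library 2 was lowest for both Cfap46 and Cfap74. These settings are not separate checks, since each brought cells as deep as the mixed ciliated and secretory cluster into the class. Finer clusters named groups of 1179 and 594 cells ciliated, with medians of 17032 and 19242.5 UMIs. They left 913 and 726 cells with 12 of 12 ciliated markers raised unnamed. Without doublet removal, a cluster of 2346 cells with a median of 17484.5 UMIs was named ciliated. Per 1000 UMIs of the 16 genes, Cfap54 stood at 71.2, 2.15, 61.1 and 62.8, and library 1 over library 3 became 0.22 (0.06 to 0.38). Cfap221 on that scale stood at 7.20, 6.77, 0 and 5.50. Library 1 also had the deepest ciliated-like cells, and within bins of depth it was not the lowest throughout. At 2000 to 4000 UMIs per cell Cfap46 was at 82.3, 59.5, 77.8 and 80.5 CPM and Cfap74 at 53.1, 56.3, 44.1 and 42.4 CPM. At 8000 UMIs and over, Cfap46 was at 44.7, 40.7, 66.0 and 60.3 CPM and Cfap74 at 29.2, 35.1, 37.1 and 42.2 CPM.

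None of the 16 other central pair genes had a step of 2-fold or more, and their median step was -0.17. The largest belonged to Spef2, the gene mutated in bgh mice, which encodes a protein of another C1 projection. It had 149.8, 248, 246 and 238 CPM, and library 1 lay under library 4 by -0.67 (-0.79 to -0.55) on the log2 scale. Wdr93 had 17.9, 27.3, 28.4 and 30.6 CPM and a step of -0.60 (-1.01 to -0.19), again with library 1 lowest. The smallest steps were -0.02 (-0.23 to 0.20) for Cfap70 and -0.03 (-0.27 to 0.22) for Kif9, a kinesin of the central pair.

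Expression of the members was concentrated in ciliated-like cells. In the other named epithelial cells (secretory-, basal- and hillock-like), Cfap221 had 1 UMI over all libraries, Cfap46 27, Cfap54 25 and Cfap74 28. The log2 ratio of ciliated-like to other epithelial cells, with 1 CPM added, was 5.38, 5.93, 5.84 and 5.77 for Cfap46 in libraries 1 to 4. It was 4.54, 5.32, 5.41 and 5.37 for Cfap74, and 6.47, 2.36, 6.51 and 6.46 for Cfap54. Cfap221 had ratios of 3.62, 3.74, 0.00 and 3.52, with 0 UMIs in both classes of library 3. The added 1 CPM holds down the ratio of a low gene such as Cfap221.

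Of the 4 members, 3 were higher in the ciliated-like cells of every library, as were all 16 other central pair genes, against 62.5% of 12418 genes tested. A ratio of at least 4 on the log2 scale in every library was found for 2 members, Cfap46 and Cfap74, and for 13 of the 16 other genes, against 3.25% of all genes. The median ratio was 5.57 over the members, 5.49 over the other central pair genes and 0.57 over all genes. Spef2 at 7.22 and Spag17 at 6.90 had the highest medians of the other genes, and Cfap20 at 2.78 and Cyb5d1 at 2.79 the lowest. The added 1 CPM holds down the ratio of Cyb5d1, which was at 7.17 against 0.206 CPM over all libraries. Cfap20 was at 211 against 30.3 CPM.

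**Figure D2:**
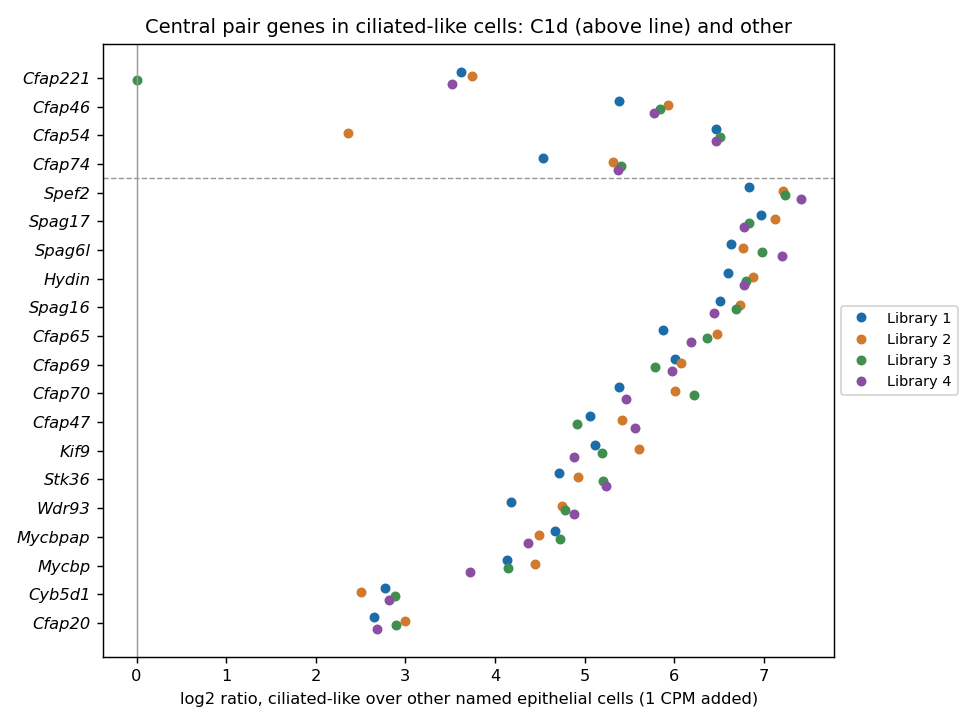
Log2 ratio of CPM in ciliated-like over other named epithelial cells, 1 CPM added, for the 4 C1d genes above the dashed line and 16 other central pair genes below it, with 1 point per library. Cfap221 in library 3 (0.00) and Cfap54 in library 2 (2.36) are the points that stand apart from their own gene's other libraries.

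The same losses were seen in the ciliated and secretory mixed cluster, which was not part of the class. Cfap221 was at 3.69, 3.81, 0 and 5.02 CPM there, and Cfap54 at 49.8, 0.561, 48.3 and 46.6 CPM. Cfap46 was at 15.5, 15.9, 20.5 and 21.7 CPM and Cfap74 at 10.3, 11.6, 14.7 and 14.5 CPM. All 4 had lower CPM there than in ciliated-like cells in each library that held them, and library 3 for Cfap221 and library 2 for Cfap54 again stood apart.

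Detection per cell was compared after each cell was thinned to 1000 UMIs, since deeper cells show more genes. Shallower cells were left out, 90, 115, 179 and 206 in libraries 1 to 4. After thinning, Cfap54 was found in 11.6% of ciliated-like cells in library 1 (9.78 to 13.7, 95% Clopper-Pearson), 0.345% in library 2 (0.0712 to 1.00), 10.1% in library 3 (8.37 to 12.0) and 12.3% in library 4 (10.4 to 14.4). Cfap46 was found in 6.99%, 9.20%, 7.28% and 8.40%, and Cfap74 in 4.17%, 5.75%, 4.41% and 6.12%. Cfap221 was found in 1.27%, 0.920%, 0% and 1.37%, where 0 of 1112 cells in library 3 allows a share of up to 0.270% by the limit of 3 counts, or 0.331% by Clopper-Pearson. Intervals of Cfap46 and Cfap74 overlapped across all 4 libraries, so library 1 did not stand apart for either at this depth. Thinned to 3000 UMIs, which left 345 cells in library 2, Cfap46 was found in 15.4% (12.8 to 18.3), 9.86% (6.92 to 13.5), 19.4% (16 to 23.2) and 15.6% (12.6 to 19.0), and the intervals of libraries 2 and 3 did not overlap.

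In other named epithelial cells thinned to the same depth, no member exceeded 0.0721% in any library, and Cfap221 was in 0 cells. Those cells were deeper, with medians of 6819 to 13976 UMIs against 2107 to 3809.5, and at full depth their share was at most 0.655%, for Cfap74 in library 1. The 0.345% for Cfap54 in library 2 rests on 3 cells of 1 random draw and averaged 0.522% over all possible draws, and the 0.920% for Cfap221 in library 2 averaged 1.59%. Without thinning, the shares in ciliated-like cells were 36.9%, 1.32%, 25.9% and 30.7% for Cfap54, 24.3%, 18.4%, 20.2% and 22.3% for Cfap46, 16.9%, 13.4%, 14.6% and 16.1% for Cfap74, and 6.46%, 4.06%, 0% and 4.07% for Cfap221. Library 1 was highest for all 4 genes on that measure, which goes against its CPM for Cfap46 and Cfap74, so no order is read from it.

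**Figure D3:**
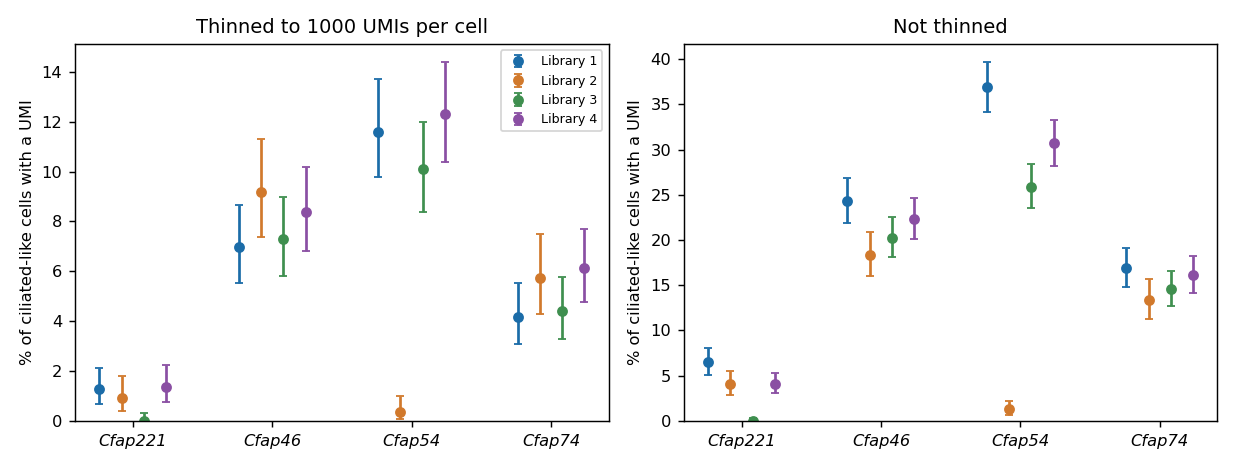
Percentage of ciliated-like cells with a UMI of each gene, thinned to 1000 UMIs per cell (left) and at full depth (right), by library, with 95% Clopper-Pearson intervals. Thinned shares of Cfap46 run from 6.99% to 9.20% and of Cfap74 from 4.17% to 6.12%, with overlapping intervals, whereas Cfap54 in library 2 is at 0.345% and Cfap221 in library 3 at 0%.

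Depth of the cell was itself related to the level of 3 members. Between the deep ciliated-like cluster (median 7564 UMIs) and the main shallow one (median 2003), Cfap46 was lower in the deep cluster by -0.56 on the log2 scale (-0.72 to -0.40, libraries summed), Cfap74 by -0.82 (-1.02 to -0.62) and Cfap221 by -0.84 (-1.29 to -0.39). Cfap46 and Cfap74 were lower in 4 of 4 libraries, at -0.66, -1.23, -0.21 and -0.42 and at -0.98, -1.05, -0.63 and -0.63. Of all genes, 31.7% were lower and 37.9% higher in 4 of 4 libraries. Cfap54 did not follow, with ratios of 0.01, 0.21 and 0.12 in libraries 1, 3 and 4 and of -1.16 on few UMIs in library 2. Cfap221 had ratios of -0.35, -1.11 and -0.85 in libraries 1, 2 and 4, on 47, 11 and 24 UMIs in the deep cluster. Its Poisson intervals in the deep and the main shallow cluster overlapped in each of these libraries. The sum for Cfap221 also includes library 3, which held none of its UMIs.

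Of the other central pair genes, 11 of 16 were lower in the deep cluster in 4 of 4 libraries and 2 were higher, Hydin and Kif9. Hydin, a very large central pair protein gene, had ratios of 0.31, 0.40, 0.74 and 0.11. The largest reductions over summed libraries were -1.31 for Cfap47 and -1.29 for Cyb5d1. The clusters were formed from the expression of these same cells, so the comparison is a description. The remaining small ciliated-like cluster, of 309 cells with a median of 756 UMIs, held 2, 4, 7 and 3 UMIs of Cfap221, Cfap46, Cfap54 and Cfap74 over all libraries, too few for a comparison.

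**Figure D4:**
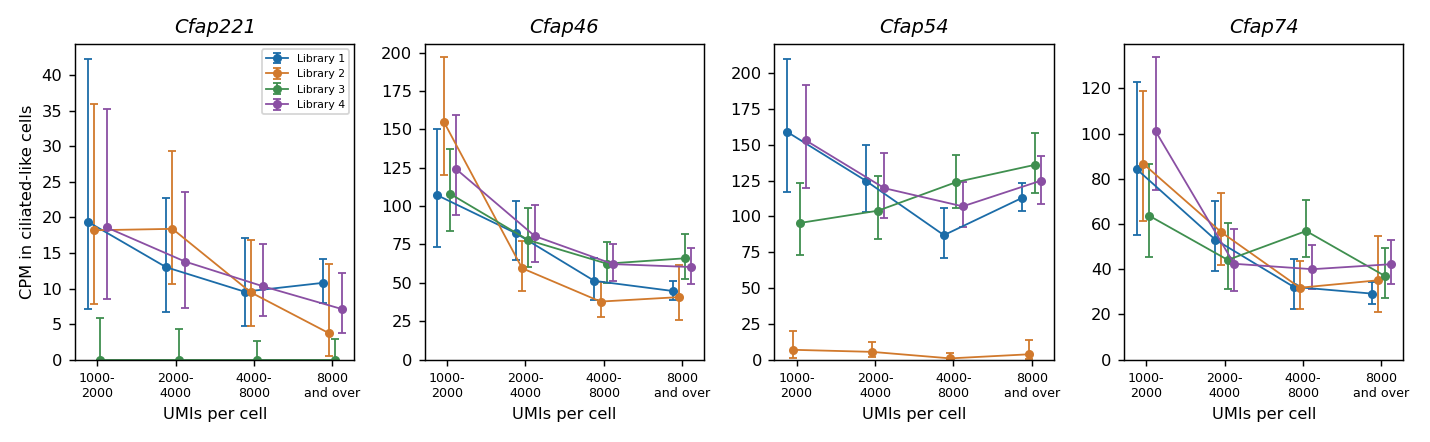
CPM of each gene in ciliated-like cells by UMIs per cell (bins 1000 to 2000, 2000 to 4000, 4000 to 8000 and 8000 and over), 1 line per library, 95% Poisson intervals. Cfap46 falls from 107 to 155 CPM in the first bin to 40.7 to 66.0 CPM in the last. Cfap54 lies between 86.9 and 159 CPM in libraries 1, 3 and 4, without a shared direction. From the first bin to the last it goes from 159 to 113 CPM in library 1, 95.4 to 136 CPM in library 3 and 153 to 125 CPM in library 4.

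Cells that held more than 1 member were then counted. At full depth, 46.6% of ciliated-like cells held at least 1 member and 15.4% held 2 or more, and 6 cells held all 4, of which 4 were in library 1 and 2 in library 4. By library, cells with 2 or more members made up 22.3%, 4.57%, 13.6% and 18.9%. At that depth Cfap46 was found in 33.0% of cells with Cfap54 and 19.3% of cells without in library 1, 32.3% and 16% in library 3, and 34.6% and 16.9% in library 4. Deeper cells are likelier to show both genes.

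After thinning to 1000 UMIs, Cfap46 was in 12.5% of cells with Cfap54 (7.32 to 19.5) against 6.26% without (4.82 to 7.97) in library 1. Thinning keeps 1 random draw of each cell's UMIs, and over all possible draws these shares averaged 7.81% (3.72 to 14.1) and 6.21% (4.78 to 7.90). The shares were 9.82% against 7.0% in library 3 and 11.1% against 8.02% in library 4, and in all 3 libraries the intervals overlapped. Library 2 had 3 cells with Cfap54, too few for the comparison. Cfap74 was in 6.49% of cells with Cfap46 against 4.0% without in library 1, and the pairs were 2.5% and 6.08%, 8.64% and 4.07%, and 7.61% and 5.98% in libraries 2, 3 and 4. Over all possible draws the pair for library 2 averaged 5.16% and 5.71%. For Cfap74 with Cfap46 the intervals overlapped in every library and the direction was not shared. For Cfap46 with Cfap54 the direction was shared in this draw and in the mean over all possible draws, with overlapping intervals. It was the same with thinning to 3000 UMIs, by very little in library 4, and the opposite in libraries 1, 3 and 4 with thinning to 500 UMIs. Cfap74 with and without Cfap54 was at 3.91% and 4.21%, 4.46% and 4.40%, and 5.19% and 6.25% in libraries 1, 3 and 4. Overlap of intervals is not a test of a difference, and the differences were not tested. Few thinned cells held each gene, so co-detection beyond depth was neither shown nor excluded for these pairs. Cfap221 was in 14, 8 and 15 thinned cells of libraries 1, 2 and 4, too few for a reading of its pairs.

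**Figure D5:**
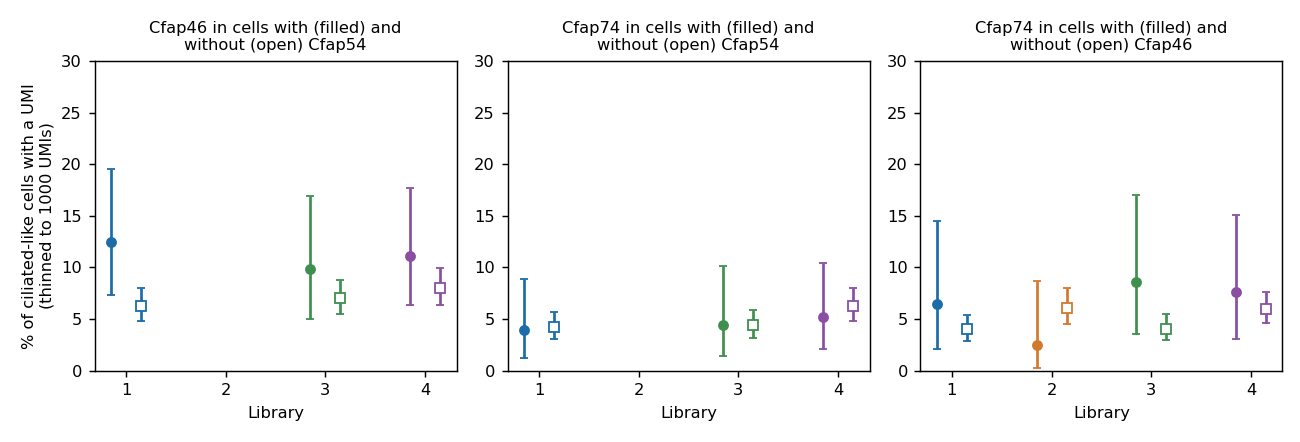
Share of ciliated-like cells, thinned to 1000 UMIs, with Cfap46 or Cfap74 among cells with (filled) and without (open) the other gene named above each panel, by library, with 95% Clopper-Pearson intervals. Library 2 is not drawn where Cfap54 defines the cells, since 3 cells held it; filled and open intervals overlap in every library shown.

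Across cell clusters, Cfap46 and Cfap74 had the closest patterns of the 4. Over 56 sums of cells, each of 1 cluster in 1 library with at least 50 cells, their log2 CPM had a Pearson r of 0.969. The sums share libraries and differ in depth, so r describes the pattern and has no p-value. Cfap46 had r of 0.837 with Cfap54, and Cfap221 had r of 0.741 with Cfap46, 0.746 with Cfap74 and 0.554 with Cfap54. The low values for Cfap54 and Cfap221 include the library in which each gene was absent or nearly so. Among 9311 genes, the 3 most like Cfap46 were Dnai3 (0.975), Rgs22 (0.975) and Lrguk (0.972), and those most like Cfap74 were Cfap46 (0.969), Odad2 (0.965) and 4930562C15Rik (0.964). Those most like Cfap54 were Gm973 (0.877), Cdkl4 (0.876) and Vwa3a (0.874), and those most like Cfap221 were Orm2 (0.842), Lrrc18 (0.810) and Agbl4 (0.799). Dnai3 and Odad2 encode proteins of the axonemal dynein arms and their docking complex.

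The neighbours of the low genes on the chromosome were also read. RefSeq places Tmem37, Dbi and 3110009E18Rik on one side of Cfap221 on chromosome 1, after Sctr, which had 0 UMIs in every library. Dbi, an acyl-CoA binding protein gene, had 2068, 1074, 0 and 1395 UMIs in ciliated-like cells, 3110009E18Rik 42, 22, 0 and 19, and Tmem37 7, 7, 0 and 7. In all barcodes of library 3 these 3 genes had 0 UMIs, as Cfap221 did. On the other side, Tmem177 had 17, 16, 4 and 14 UMIs and Ptpn4 70, 35, 36 and 55, and neither was at 0. The genes next to Cfap54 on either side were present in library 2, Nedd1 with 49, 13, 20 and 26 UMIs and Cdk17 with 313, 187, 240 and 277.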

How the data were processed

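Single-cell 3' tag counts were analysed in 4 libraries of mouse tracheal cells. The deposited matrix holds raw UMI counts per gene and barcode, written by Cell Ranger 6.0.1 per the file headers, on GRCm39 per the submitters' processing notes. The gene annotation is not given in the sources used here. Barcodes needed at least 300 genes and at most 20% mitochondrial UMIs. Doublets were scored with scrublet in scanpy 1.11.5, whose automatic threshold marked 0.0442% of cells and was taken as a failure, so the highest scores of each library were removed at 0.8% per 1000 cells. Cells were clustered (2000 variable genes without the 4 members, 30 components, 15 neighbours, Leiden resolution 1) and named from marker lists, and free RNA was not subtracted. Counts were summed per library and class as CPM with exact Poisson intervals. Ratios had exact conditional binomial intervals and shares Clopper-Pearson intervals. Reads of droplet libraries are counted by UMI, and intervals cover counting error only. Thinning drew 1000 UMIs per cell once with a fixed seed. The comparison of steps between libraries was tested on simulated data.

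The members, gene lists and rules were chosen with earlier results of these data known. The named genes are the 4 members, Spef2, Wdr93, the 2 other central pair genes with the largest and the 2 with the smallest ratio of each comparison, and the 3 genes most correlated with each member. Other genes the rule names are not reported here. Dbi and the other neighbours were named after their values were seen. Of the radial spoke and ciliogenesis lists that were also read, 13 of 13 measured radial spoke genes and 8 of 8 ciliogenesis regulators were higher in ciliated-like cells in 4 of 4 libraries, against 62.5% of 12418 genes. One of the regulators, Gmnc, rests in library 3 on 2 UMIs and a log2 ratio of 0.03. No gene of these lists had a 2-fold step between libraries.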

Additional observations from a re-analysis of the deposited data

Results flagged for a closer look

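The matrix carries a feature called eGFP, which the comparisons did not use and which no label explains. It had 9893, 291, 0 and 9935 UMIs in ciliated-like cells of libraries 1 to 4, above the limit of 3 UMIs that a count of 0 allows in libraries 1, 2 and 4. These gave 1398, 92.3, 0 and 1926 CPM, against 3.53, 147, 0 and 5.79 CPM in the other named epithelial cells. A UMI was found in 91.6%, 22.6%, 0% and 92.2% of ciliated-like cells.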

How the results depend on the processing

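Values were recomputed under each alternative, on the log2 scale for levels and ratios and in percent for shares. Cfap221 stayed lowest in library 3 and Cfap54 in library 2 under every setting run, and each member's ciliated ratio, given here as the median over libraries, stayed above 0. For Cfap221 no choice of cells could change the lowest library, since all barcodes of library 3 held 0 of its UMIs. The lowest library of Cfap46 or Cfap74 was library 1 or library 2, depending on the setting. All 36 values held within their error or range when cells were chosen by marker share (4632 cells, 4554 of them ciliated-like by cluster) and with at most 10% mitochondrial UMIs, and so did all 23 with the mean over every possible draw of 1000 UMIs. The marker-share gate, the draw mean and thinning to 3000 UMIs were chosen after seeing the data. The planned gate at 5% markers left 1 cell and was not run. No paired analysis was possible because each genotype has 1 library and no label ties a library to a sample, and for the same reason leaving out a replicate could not be done. The co-detection difference of Cfap46 with Cfap54 turned negative in libraries 1, 3 and 4 with thinning to 500 UMIs, in library 1 at resolution 2, in library 3 with the members among the variable genes and with cells chosen by marker share, and in library 4 with at most 10% mitochondrial UMIs. That of Cfap74 with Cfap46 took both signs over the settings in each of the 4 libraries.

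With clusters at resolution 2 (4956 ciliated-like cells) the lowest library against the next was -5.85 for Cfap54 (libraries 2 and 3) and -0.06 for Cfap74 (libraries 2 and 1) and the ciliated ratio was 4.60 for Cfap46 and 4.07 for Cfap74. Detection there was 0.748% for Cfap221 in library 4, 4.29, 4.28, 4.24 and 4.86% for Cfap46 in libraries 1, 2, 3 and 4, 7.36, 7.71 and 8.23% for Cfap54 in libraries 1, 3 and 4, 2.35, 3.65 and 3.37% for Cfap74 in libraries 1, 2 and 4. Co-detection there differed by -3.14 points for Cfap46 with Cfap54 in library 1 and 8.92 points for Cfap74 with Cfap46 in library 2. Without doublet removal (7113 cells) the lowest library against the next was -0.05 for Cfap74 (libraries 2 and 1) and the ciliated ratio was 4.62 for Cfap46 and 4.09 for Cfap74. Detection there was 5.06, 6.32, 5.29 and 5.80% for Cfap46 in libraries 1, 2, 3 and 4, 6.87 and 8.80% for Cfap54 in libraries 3 and 4, 4.43% for Cfap74 in library 4. With the mixed clusters added (7235 cells) the lowest library against the next was -0.14 for Cfap74 (libraries 2 and 1) and the ciliated ratio was 4.61 for Cfap46 and 4.11 for Cfap74. Detection there was 0.609% for Cfap221 in library 1, 5.32, 5.58 and 5.96% for Cfap46 in libraries 2, 3 and 4, 7.78 and 8.25% for Cfap54 in libraries 3 and 4, 3.76 and 4.34% for Cfap74 in libraries 2 and 4. With the members allowed among the variable genes, co-detection differed by -2.48 points for Cfap46 with Cfap54 in library 3. With means of per-cell CPM the lowest library against the next was -3.95 for Cfap54 (libraries 2 and 3) and the ciliated ratio was 3.78 for Cfap221, 6.02 for Cfap46 and 5.70 for Cfap74. In cells with at least 3000 UMIs the lowest library against the next was -6.23 for Cfap54 (libraries 2 and 1) and -0.14 for Cfap74 (libraries 1 and 2) and the highest against the lowest was 0.85 for Cfap46 (libraries 3 and 2). Per 1000 UMIs of the other central pair genes the lowest library against the next was -0.00 for Cfap46 (libraries 2 and 1) and -0.18 for Cfap74 (libraries 1 and 2) and the highest against the lowest was 0.16 for Cfap46 (libraries 3 and 2) and 0.22 for Cfap74 (libraries 3 and 1). With 5 CPM added the ciliated ratio was 3.82 for Cfap46 and 3.35 for Cfap74. Against all other filtered cells the ciliated ratio was 3.51 for Cfap46 and 3.37 for Cfap74. With thinning to 500 UMIs detection was 0.587 and 0.692% for Cfap221 in libraries 1 and 4, 3.78, 5.48, 3.87 and 4.46% for Cfap46 in libraries 1, 2, 3 and 4, 6.96, 5.65 and 5.07% for Cfap54 in libraries 1, 3 and 4, 2.27, 2.64, 2.71 and 3.31% for Cfap74 in libraries 1, 2, 3 and 4. Co-detection there differed by -0.173 points for Cfap46 with Cfap54 in library 1, -2.65 points for Cfap46 with Cfap54 in library 3 and -0.740 points for Cfap74 with Cfap46 in library 3. With thinning to 3000 UMIs detection was 4.20 and 2.90% for Cfap221 in libraries 1 and 2, 15.4, 9.86, 19.4 and 15.6% for Cfap46 in libraries 1, 2, 3 and 4, 25.8, 27.9 and 27.1% for Cfap54 in libraries 1, 3 and 4, 10.9, 11.3, 13.6 and 11.3% for Cfap74 in libraries 1, 2, 3 and 4. Co-detection there differed by 7.04 points for Cfap74 with Cfap46 in library 2. Without thinning detection was 6.46, 4.06 and 4.07% for Cfap221 in libraries 1, 2 and 4, 24.3, 18.4, 20.2 and 22.3% for Cfap46 in libraries 1, 2, 3 and 4, 36.9, 1.32, 25.9 and 30.7% for Cfap54 in libraries 1, 2, 3 and 4, 16.9, 13.4, 14.6 and 16.1% for Cfap74 in libraries 1, 2, 3 and 4. Co-detection there differed by 13.7 points for Cfap46 with Cfap54 in library 1, 16.3 points for Cfap46 with Cfap54 in library 3, 17.7 points for Cfap46 with Cfap54 in library 4 and 11.7 points for Cfap74 with Cfap46 in library 4.

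The share of genes with a 2-fold step was 1.71% with at least 50 UMIs, 2.11% with no filter and 0.129% at 4-fold. Fewer UMIs per cell give fewer detections by construction, and the cause of the other shifts was not tested. Cfap221, with 0 to 80 UMIs per library, limits what a change of under 2-fold could show.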

Other observations

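Near Cfap46, Lrrc27 had 14, 45, 49 and 12 UMIs in ciliated-like cells of libraries 1 to 4, or 1.98, 14.3, 11.4 and 2.33 CPM. Nkx6-2, the gene next to Cfap46, had 2, 9, 13 and 4 UMIs. Both were named after their values were seen, and libraries 2 and 3 were the high ones for each. Cfap46 itself was at 54.0, 65.9, 75.1 and 71.7 CPM and did not follow that split.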
